A study of Homo sapiens and Mus musculus with 19 samples.

Results

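IKKb, the kinase that switches on canonical NF-kB signalling, was expressed in 5 human lung adenocarcinoma lines. The mean rise of NF-kB target genes was large in H358 and HCC827 and small in A549, H23 and PC9. The split came from the data themselves. For each line the log2 ratio of the IKKb array to the control (MiG) array was taken per gene, and the lines were chosen by the rise of NF-kB targets in these ratios. The mean over 18 NF-kB pathway and feedback genes was 1.34 in H358 and 1.08 in HCC827, against 0.21 in A549, 0.41 in H23 and 0.31 in PC9. Every IKKb to MiG value below is therefore a description of the lines, with no test. The account rests on 10 of the 19 arrays of the series, and the 5 human arrays with the IkB alpha super-repressor and 4 mouse arrays serve as separate measurements.

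All cells carried the retrovirus MiG and were sorted for GFP. MiG alone was the control, the second vector carried IKK beta made constantly active by glutamates in place of 2 serines (IKKb), and the third carried an IkB alpha super-repressor with alanines in place of serines (IkB_SR). The human lines were grown in RPMI with serum, each line with a single array for each vector. The mouse LLC line, named LLC-kB OVA in the labels, was grown in DMEM with serum, with 2 MiG and 2 IKKb arrays. The lines are the replicates, and the labels do not say whether the LLC arrays came from separate cultures, so p-values there measure only the spread between arrays.

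NF-kB dimers are held in the cytoplasm by IkB proteins. IKK phosphorylates IkB, which is then degraded, and the freed dimers bind kB sites and raise genes for chemokines, cytokines, survival proteins and the inhibitors that end the response, among them IkB alpha (NFKBIA) and the ubiquitin-editing enzyme A20 (TNFAIP3). A super-repressor IkB that cannot be phosphorylated keeps the dimers bound.

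Of 15212 human genes kept after a filter on dim probe sets, 32 (0.210%) had ratios in H358 and HCC827 that were both at least 1 log2 unit above the highest ratio of the other 3 lines, and 15 (0.0986%) had both at least 1 log2 unit below the lowest. The gap between the sets of lines is the distance between these nearest ratios. The 32 higher genes were led by the chemokines CCL20, CXCL5 and CCL2, the proteoglycan SRGN, the activin subunit INHBA, the protease MMP9, the pentraxin PTX3 and TNFAIP3. Just inside the limit were IKBKE and SELENOM with gaps of 1.03, and just outside were IL1RN at 0.99 and C8orf74 at 0.98. Per line, at least 2-fold changes were found for 464 genes up (3.05%) and 597 down (3.92%) in H358, 432 (2.84%) and 483 (3.18%) in HCC827, 144 (0.947%) and 287 (1.89%) in A549, 391 (2.57%) and 214 (1.41%) in H23, and 239 (1.57%) and 379 (2.49%) in PC9. H358 and HCC827 shared 80 genes (0.526%) that were at least 2-fold higher in both and 45 (0.296%) that were at least 2-fold lower, and 51 of the 80 (0.335%) were under 2-fold in the other 3 lines. Without any margin, the ratios of H358 and HCC827 lay above those of the other 3 lines for 1961 genes (12.9%) and below for 1393 (9.16%). Across all genes the ratios of H358 and HCC827 had a correlation of 0.10, and the other 9 pairs of lines lay between -0.04 and 0.12; genes are not independent replicates, and the ratios of a line share 1 pair of arrays.

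The sequence upstream of the higher genes is shown because NF-kB acts through it. RefSeq (GRCh38.p14) promoters were at hand for 25 of the 32, as 250 bases ending at the transcription start, and both strands were searched for the kB consensus by name and for its symmetric core GGAANTTCC, which can overlap it. The kB consensus was found upstream of 14 of the 25 (56.0%), against 15.2% of the 12134 kept genes with a promoter and 9.96% of all 35116 promoters. A gene with several promoters counted when any of them held a match, as for ZEB1, while the last share counts promoters and not genes. GGAANTTCC was found upstream of 4 of the 25, against 1.09% and 0.826%. Of the 15 lower genes, 14 had a promoter and 0 held either motif. A match describes these letters only. Some of the 14 genes, not among those printed below, matched through runs mostly of G and C. Examples are GGGGGGTCCCC in COL6A2, GGGGACCCCC in OPTC and GGGGGGCCCC in FERMT3. The lines were chosen by the rise of NF-kB targets, NFKBIA and TNFAIP3 among them, and that choice can favour genes with kB sites. The shares are therefore a description with no test. In the 6 promoters below the capitals mark the matches, and each is written 5′ to 3′ on the strand of its gene. They lie at chr2:227813592-227813841 (CCL20, plus strand), chr4:73998678-73998927 (CXCL5, minus), chr4:74099196-74099445 (CXCL2, minus), chr3:157436600-157436849 (PTX3, plus), chr6:137867009-137867258 (TNFAIP3, plus) and chr14:35404750-35404999 (NFKBIA, minus).
CCL20: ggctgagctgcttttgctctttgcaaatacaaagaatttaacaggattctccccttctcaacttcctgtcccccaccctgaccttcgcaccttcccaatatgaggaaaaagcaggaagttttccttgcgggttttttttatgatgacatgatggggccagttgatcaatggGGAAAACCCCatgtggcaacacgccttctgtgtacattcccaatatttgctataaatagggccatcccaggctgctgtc
CXCL5: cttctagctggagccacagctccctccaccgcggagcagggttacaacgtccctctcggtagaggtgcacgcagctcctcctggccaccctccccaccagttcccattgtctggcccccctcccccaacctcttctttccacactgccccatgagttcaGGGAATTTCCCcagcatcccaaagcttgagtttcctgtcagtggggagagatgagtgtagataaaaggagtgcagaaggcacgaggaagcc
CXCL2: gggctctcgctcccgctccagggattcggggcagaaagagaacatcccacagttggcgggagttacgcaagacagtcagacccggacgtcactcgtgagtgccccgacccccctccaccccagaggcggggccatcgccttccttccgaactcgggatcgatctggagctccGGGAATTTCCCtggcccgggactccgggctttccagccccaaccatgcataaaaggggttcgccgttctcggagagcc
PTX3: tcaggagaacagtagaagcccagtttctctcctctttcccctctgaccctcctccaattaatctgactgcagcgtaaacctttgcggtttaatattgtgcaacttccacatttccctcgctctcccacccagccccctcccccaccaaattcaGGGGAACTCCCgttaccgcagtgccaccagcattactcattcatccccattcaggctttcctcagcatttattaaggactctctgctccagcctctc
TNFAIP3: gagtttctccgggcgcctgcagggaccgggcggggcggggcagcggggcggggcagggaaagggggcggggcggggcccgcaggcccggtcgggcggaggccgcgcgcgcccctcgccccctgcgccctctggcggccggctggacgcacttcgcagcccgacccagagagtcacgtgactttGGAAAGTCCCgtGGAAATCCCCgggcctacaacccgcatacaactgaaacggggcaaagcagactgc
NFKBIA: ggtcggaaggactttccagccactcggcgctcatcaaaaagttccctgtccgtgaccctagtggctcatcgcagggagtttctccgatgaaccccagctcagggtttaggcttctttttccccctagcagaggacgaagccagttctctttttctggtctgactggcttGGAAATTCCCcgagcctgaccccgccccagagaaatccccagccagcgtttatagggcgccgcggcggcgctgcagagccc
CXCL5 and CXCL2 share the same run of capitals, which starts 91 and 78 bases before their starts. The run in CCL20 starts 79 bases upstream, that in PTX3 97 bases and that in NFKBIA 81 bases, while TNFAIP3 has 2 matches, at 67 and 55 bases. INHBA, BCL2A1, CHST2, SOD2, CHAC1 and IKBKE are among the 11 higher genes whose promoters held neither motif in this window. SRGN, MMP9, CCL2, C1QTNF1, SCNN1D, C3 and SELENOM had no entry.

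Before the ratios, 3 facts about the arrays bear on them. The Dap spike-in gave 4376 on the H358 IKKb array where MiG and IkB_SR of that line had 1128 and 1103, and its 3′ to 5′ actin ratio was 1.74, compared with 1.41 and 1.38. In HCC827 the Dap signals were 3692 (MiG) and 3747 (IKKb), and in PC9 2376 and 4354. The part of the spike-in and actin shift in the H358 values was not tested, and each line is therefore given separately. The 6 epithelial markers were above the 40th percentile of the array on every MiG and IKKb array of H358, HCC827, A549 and PC9, and 5 of 6 in H23. Of the 6 leukocyte markers, 5 were on the array, with 1 to 3 above the 40th percentile and summed signals of 130 to 170 on the 4 arrays of H358 and HCC827, against 2 to 4 and 380 to 847 on the 6 arrays of the other lines. The IkB_SR vector carries a mutant form of NFKBIA, and whether the NFKBIA probe set also reads the transgene was not tested. The IkB_SR signals of NFKBIA were 8963 in H358, 14578 in HCC827, 7343 in A549, 7292 in H23 and 7167 in PC9. They were above MiG in 4 lines and below it in H23 (9329). The brightest IKBKB probe set had ratios of -0.33 to 0.04, while a dimmer one had 0.69 in H358 and 1.56 in HCC827, beside 0.48, 1.43 and 1.16 in A549, H23 and PC9. The third had -0.50 to 0.40, and which of them reads the vector's kinase was not tested. In bulk RNA, fewer responding cells and less RNA per cell cannot be told apart.

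Feedback inhibitors and NF-kB subunits were higher with IKKb in H358 and HCC827. TNFAIP3 had a MiG signal of 285 and an IKKb signal of 3007 in H358, and 533 and 5782 in HCC827. In the other lines it went from 269 to 597 in A549, from 2840 to 3872 in H23 and from 3679 to 6075 in PC9. The log2 ratios were 3.33 and 3.40 against 1.11, 0.45 and 0.72, while the IKKb signals of PC9 and H23 lay above that of H358. In all 5 lines the IkB_SR signal of TNFAIP3 was below MiG, at 130 in H358, 155 in HCC827, 120 in A549, 927 in H23 and 615 in PC9. NFKBIA also separated the 2 sets: 2200 to 8602 in H358, 2058 to 6877 in HCC827, 4581 to 5306 in A549, 9329 to 9950 in H23 and 1185 to 1384 in PC9. PC9 was the lowest line for NFKBIA under both vectors and H23 the highest. SOD2, the mitochondrial superoxide dismutase, had ratios of 2.09 and 2.24 against 0.24 (A549), 0.16 (H23) and 0.75 (PC9).

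Of the 21 listed NF-kB pathway genes 18 were measured above the filter, and for 14 of them H358 and HCC827 both lay above the other lines, against 12.9% of all genes. Only NFKBIA, TNFAIP3 and SOD2 did so by 1 log2 unit or more. Smaller gaps were found for NFKBIE, a further IkB (0.81), the adaptor TRAF1 (0.65), the kinase IRAK2 (0.60), the A20 partner TNIP1 (0.57) and the subunits RELB (0.42) and NFKB2 (0.42). RELA, REL, NFKBIZ and TRAF3 overlapped between the sets. The list was the measure that chose the lines, so these counts restate the choice for its separate genes. The genes upstream of the kinase were less divided, with 4 of 23 above the other lines, 1 below and list medians between -0.07 and 0.07. Within them TNFRSF1B, a TNF receptor, had a ratio of 2.92 in H358 and 0.61 in HCC827, and TLR2 had 1.67 and 1.45, against 1.26 in H23.

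**Figure D1:**
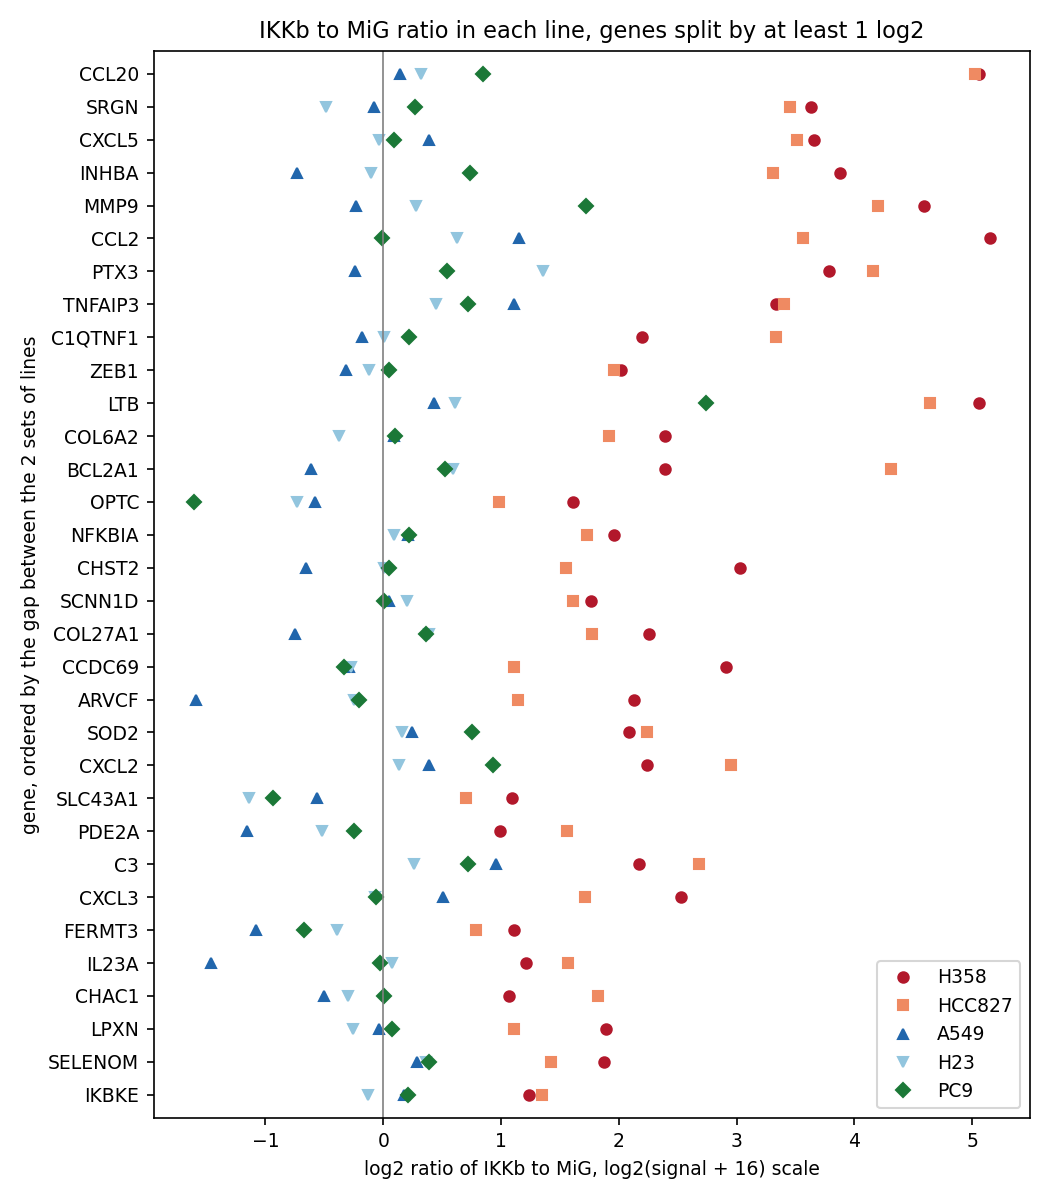
Log2 ratio of the IKKb to the MiG array (x axis, log2(signal + 16) scale) for the 32 genes whose ratios in H358 and HCC827 lay at least 1 log2 unit above those of the other 3 lines, ordered by that gap (y axis), with 1 point per line. The gap is 4.17 for CCL20 at the top and 1.03 for IKBKE at the bottom, and the ratio of PC9 stands between the sets for LTB (2.74) and MMP9 (1.72).

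Chemokines gave the widest separation. CCL20, which draws CCR6-bearing lymphocytes and dendritic cells, went from 93.9 to 3658 in H358 and from 13.8 to 952 in HCC827. It stayed at 2.61 and 4.47 in A549 and 5.19 and 22.2 in PC9, all below the 40th percentile of their arrays (a signal of 28.7 to 45.0). In H23 it was already 1565 under MiG and 1960 under IKKb, so the MiG level of H23 exceeded the IKKb level of HCC827. The change was 33.4-fold in H358 and at least 19.7-fold in HCC827, where the MiG array was taken at its 40th percentile. CCL2, the monocyte chemokine, went from 13.0 to 1015 in H358 and from 927 to 11087 in HCC827. The other lines gave 666 and 1494 (A549), 7212 and 11132 (H23) and 3.82 and 3.73 (PC9), so the IKKb signals of H23 and HCC827 were nearly the same from different MiG levels.

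CXCL5, a neutrophil chemokine of the ELR class, was 5.68 and 258 in H358 and 53.8 and 777 in HCC827. A549 had 7666 under MiG and 10025 under IKKb, above every array of the 2 strongly responding lines, and H23 and PC9 stayed between 5.68 and 12.9. Its relatives CXCL2 and CXCL3 had ratios of 2.24 and 2.53 in H358 and 2.95 and 1.71 in HCC827, and at most 0.93 (CXCL2, PC9) and 0.51 (CXCL3, A549) elsewhere. Of 19 listed chemokines 14 passed the filter, and 8 of them separated the lines upwards without overlap (12.9% of all genes), 5 by 1 log2 unit or more (0.210%). The list medians were 1.90 in H358 and 1.89 in HCC827, against 0.39 in A549, 0.30 in H23 and 0.59 in PC9, where the median of all genes was -0.05 to 0.01 over the 5 lines.

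CXCL8 and CCL5 did not follow the split. CXCL8 had ratios of 3.79 in HCC827, 2.65 in PC9 and 2.18 in A549, but 0.13 in H358 and 0.11 in H23; H358 had the brightest MiG signal of the 5 lines at 6090, with 6646 under IKKb. CCL5 had its largest ratio in H358, from 1.56 to 2620 (at least 48.6-fold), followed by H23, from 329 to 3247, and its ratio in PC9 (2.92) was above that in HCC827 (1.10). CXCL10 separated the lines by a small gap, 0.29, with 2.50 and 2.06 against 1.77 in H23 and 1.37 in PC9.

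Cytokines and other secreted proteins formed the next group. LTB, the membrane partner of lymphotoxin alpha, had MiG signals of 61.7 in H358 and 125 in HCC827 and IKKb signals of 2572 and 3506. PC9 went from 65.8 to 531, A549 from 51.3 to 74.6 and H23 from 41.6 to 72.2. On this probe set the 5 lines thus began within a narrow range for LTB and ended apart. A second LTB probe set, above the 40th percentile on 13 arrays, had ratios of -0.32 in H358 and -0.13 in HCC827 and a gap of 0. INHBA, which encodes the activin beta A chain, went from 120 to 1997 in H358 and from 193 to 2063 in HCC827, against 1617 to 2720 in PC9 and signals of at most 17.6 in A549 and H23. Another INHBA probe set split the lines with a gap of 1.56, while a further one had -0.33 in H358 and 2.33 in HCC827. PTX3, a soluble pattern recognition protein, went from 131 to 1998 in H358 and from 102 to 2109 in HCC827. It was 2569 and 6641 in H23 and 3165 and 4608 in PC9, above both strongly responding lines under either vector, and at most 17.8 in A549. The complement component C3 had ratios of 2.17 and 2.68 against 0.96, 0.26 and 0.72, and IL23A had 1.21 and 1.57 against at most 0.07.

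Of 29 listed cytokines 23 passed the filter, 6 separated the lines upwards (12.9% of all genes) and 3 did so by 1 log2 unit or more (0.210%): INHBA, LTB and IL23A. CSF1 was next at 0.94. IL32 was the single gene of 15212 (0.00657%) that was at least 2-fold higher in all 5 lines, with ratios of 4.84 (H358), 3.01 (PC9), 2.76 (HCC827), 1.60 (H23) and 1.59 (A549). IL6 had its largest ratio in HCC827, from 1617 to 12460, a ratio of 2.93 against 0.36 to 0.96 in the other lines. VEGFA and VEGFC, growth factors of the list, had ratios between -0.06 and 0.17.

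Proteases, matrix and adhesion genes included some of the largest ratios. MMP9, a gelatinase, went from 1117 to 27261 in H358 and from 102 to 2158 in HCC827. It went from 136 to 482 in PC9 and from 647 to 791 in H23, and from 128 to 106 in A549. The MMP9 signal of H358 under MiG was above that of every other line's MiG array and the IKKb signal of HCC827 was above those of A549, H23 and PC9. SRGN, the core protein of an intracellular proteoglycan, behaved differently: it was 9.35 and 299 in H358 and 9.92 and 268 in HCC827, while A549 (3399 and 3223) and PC9 (9675 and 11672) were bright under both vectors, and H23 had 330 and 230. The changes were at least 5.80-fold and 5.78-fold. ICAM1, a ligand of leukocyte integrins, had ratios of 1.83 in H358 and 2.53 in HCC827 against 0.25, 0.82 and 1.12, a gap of 0.71. The collagen chains COL6A2 and COL27A1 had gaps of 1.81 and 1.38, but a second bright probe set of each gave HCC827 ratios of -0.05 and -0.12 and a gap of 0. A further COL27A1 probe set had 0.77 in HCC827 and a gap of 0.23. Of the 32 genes 14 had a second probe set above the filter. For 7 of these such a probe set split the lines the same way at any gap above 0, as 12.9% of all genes did on their brightest probe set. Some of these gaps were small, as for COL27A1 and CXCL2 (0.25). The second probe sets of IKBKE (-0.02 in H358 and 0.54 in HCC827) and C1QTNF1 (-0.08 and 0.13) did not split the lines this way. BCL2A1, an anti-apoptotic relative of BCL2, had ratios of 2.39 and 4.31 against -0.61 in A549, 0.59 in H23 and 0.52 in PC9.

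ZEB1, a repressor of epithelial genes, went from 140 to 616 in H358 and from 5.31 to 67.0 in HCC827, where the MiG signal was below the 40th percentile and the change at least 1.69-fold. A549 and H23 had signals of 1241 to 3086, and PC9 22.4 and 23.7. The other 3 ZEB1 probe sets had gaps of 0, with overlapping ratios, so the split of ZEB1 rests on 1 probe set. CDH1, the E-cadherin gene, had ratios between -0.19 and 0.24 in all 5 lines. The mesenchymal list had a median of 0.73 in H358 and -0.18 in HCC827, so it did not move alike in these lines. VIM (1.13 and -0.62), CDH2 (1.20 and -0.18) and SPARC (1.02 and -0.35) had opposite signs in H358 and HCC827.

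The levels behind the ratios differed from gene to gene. Among the 32 higher genes, 12 had a MiG signal in A549, H23 or PC9 that was above both IKKb signals of H358 and HCC827, as CXCL5, SRGN and PTX3 did, a pattern found in 63.8% of all kept genes. For 10 of the 32, both IKKb signals of H358 and HCC827 were above those of all 3 other lines, as for LTB, against 11.1% of all genes. For 6, the MiG signals of H358 and HCC827 were both below the 40th percentile (3.89% of all genes). For 16, 1 or both were, and the share of all genes for this count was not taken. Those 16 passed the filter through other arrays. Their folds are lower bounds in the line with the dim MiG signal. The part of the starting level in the split was not tested.

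**Figure D2:**
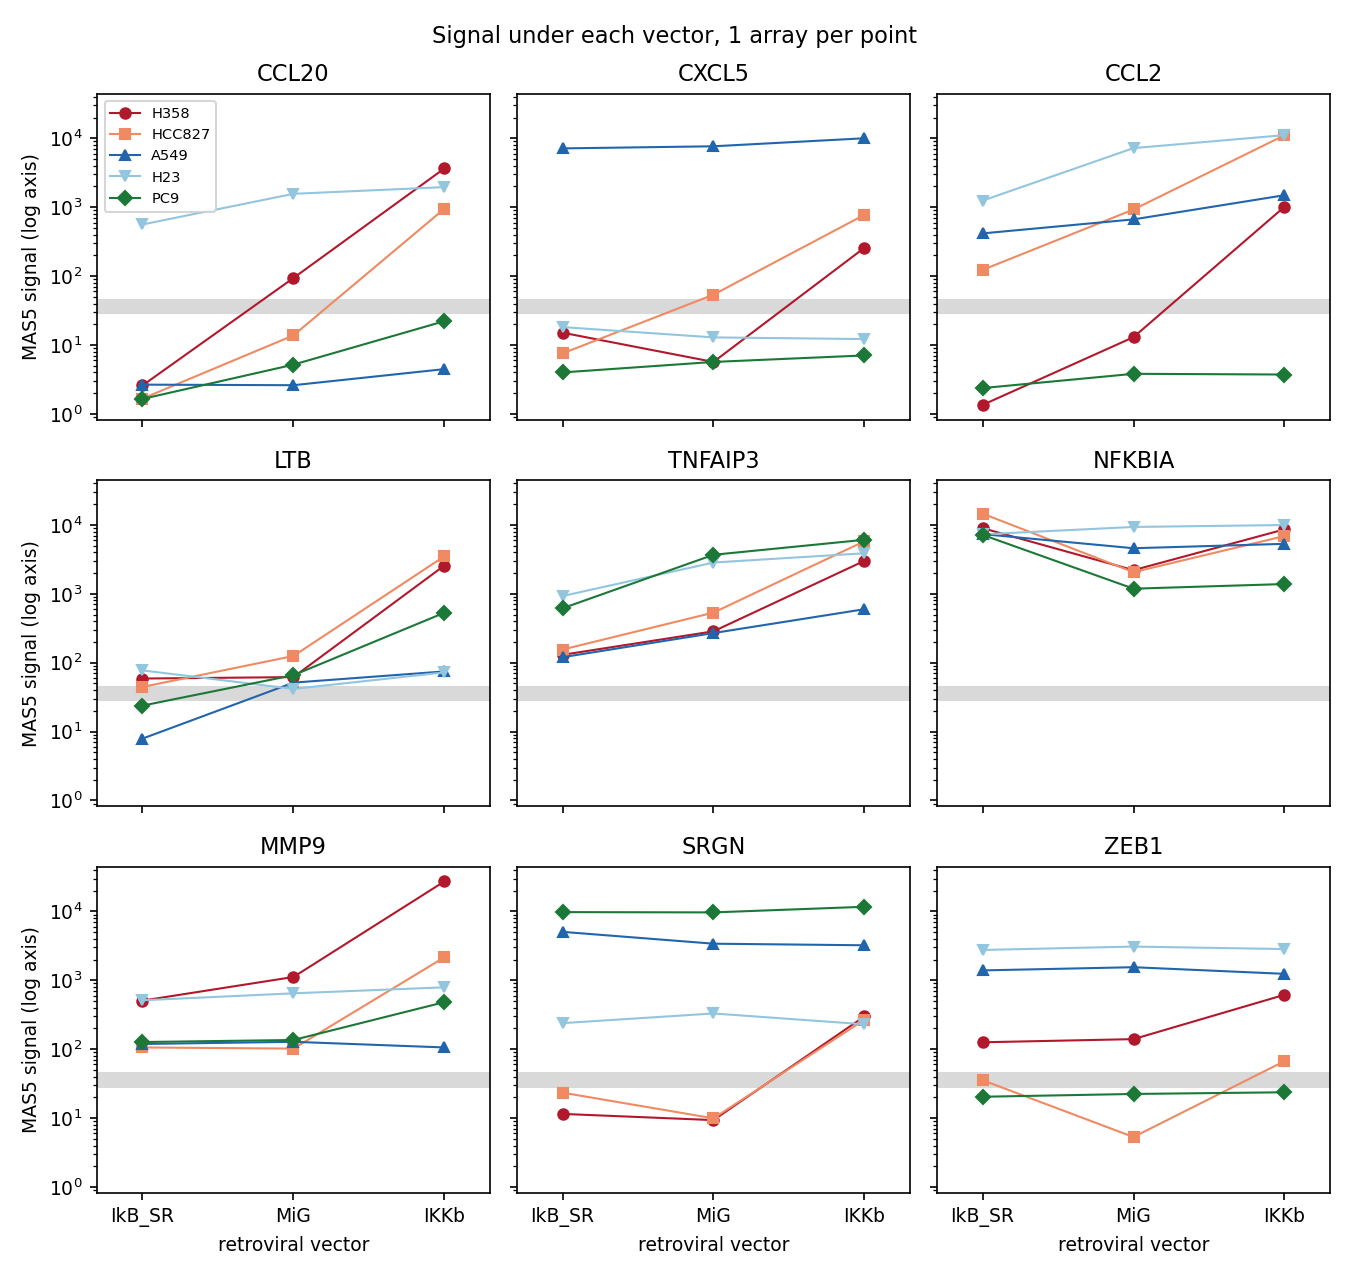
MAS5 signal on a log axis (y) under the 3 vectors (x) for 9 genes, with 1 line joining the arrays of each cell line and the grey band marking the 40th percentile over the 15 human arrays (28.7 to 45.0). LTB starts close together under MiG and separates under IKKb, CXCL5 and SRGN are brightest in lines with small ratios, and NFKBIA is raised under IkB_SR in 4 lines. Whether its probe set also reads the transgene was not tested.

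Under the super-repressor, the same genes can be read against the MiG arrays; both ratios of a line share that MiG array, so values are set side by side only. A ratio of IkB_SR to MiG of -1 or less was found for 9 of the 32 in H358 (1.43% of all genes) and 7 in HCC827 (2.98%), and for 8 in A549 (2.27%), 5 in H23 (1.72%) and 9 in PC9 (2.64%). For CCL2 it was -2.52 in H23 and -2.77 in HCC827, where the IKKb ratios were 0.63 and 3.56. For CCL20 in H23 it was -1.45 beside an IKKb ratio of 0.32. PTX3 in PC9 had -2.14 beside 0.54, and TNFAIP3 in PC9 -2.55 beside 0.72. Lines with small IKKb ratios thus included genes whose signal was well below MiG with the super-repressor. MMP9 had -1.11 in H358 and between -0.33 and 0.05 in the other 4 lines, and SRGN lay between -0.44 and 0.60 throughout.

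The IkB_SR arrays were not used to choose the lines, so levels on them could be tested, 2 lines against 3. Limma with Benjamini-Hochberg adjustment called 0 of 15212 genes, higher or lower; at an unadjusted p under 0.05 there were 585 genes higher in H358 and HCC827 (3.85%) and 387 lower (2.54%). Leaving out any of the 5 arrays also gave 0 calls. S100A2, a calcium-binding protein of epithelial cells, came nearest, 4.75 ± 0.34 (log2, SE) higher at an adjusted p of 0.0685 by limma, with 13987 in H358 and 14654 in HCC827 against 510 to 526. BST2, an interferon-induced membrane protein, was 6.19 ± 0.55 higher, its signals in the other 3 lines lying between 6.31 and 7.84, and the ubiquitin hydrolase UCHL1 was lower (-4.77 ± 0.42), both at an adjusted p of 0.0970 by limma. IFI44, also interferon-induced, was 5.65 ± 0.58 higher (adjusted p 0.177, limma), with 1870 and 1094 against 4.15 to 22.3. Of the 34 interferon-stimulated genes kept, 24 were higher at an unadjusted p under 0.05 and 0 lower, with a median difference of 2.27, and of the 19 MHC class I genes 10 were higher and 0 lower, with a median of 1.60. Limma called none of these after adjustment. The difference in BST2 was also there without the super-repressor. Its MiG signals were 2150 in H358 and 4013 in HCC827, against 5.48 in A549, 12.8 in H23 and 9.52 in PC9. The median ratio of IkB_SR to MiG over the interferon-stimulated list was -2.26 in HCC827 but -0.0 in H358. In the other lines it lay between -0.3 and -0.08. For the genes that led the IKKb split, the levels under IkB_SR overlapped or were lower in H358 and HCC827. SRGN was -6.15 ± 1.5, CCL20 -1.67 ± 1.52, TNFAIP3 -1.45 ± 0.89, MMP9 0.22 ± 0.92 and LTB 0.59 ± 0.67. These genes were picked by ratios to MiG, which depend on the starting level of each line. Their differences on the IkB_SR arrays are therefore a description with no test.

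Beyond the shared genes each strongly responding line had its own. H358 lay at least 1 log2 unit above all 4 other lines for 168 genes (1.10%) and below them for 184 (1.21%), and HCC827 for 150 (0.986%) and 126 (0.828%). In H358 the salivary-type cystatins CST1, CST2 and CST4, near-identical genes whose probe sets may cross-read, had ratios of 9.54, 7.16 and 6.47. CST1 went from 5.20 to 15801 (at least 292-fold), and its largest ratio in another line was 1.88 in A549. SERPINA1, the alpha-1 antitrypsin gene, went from 86.3 to 4590 in H358, while HCC827 had 5351 and 5909. ACKR3, a chemokine scavenger receptor, went from 57.3 to 1267. Farthest below the other 4 lines in H358 were GPX2 (303 to 8.51), the adhesion protein CEACAM5 (528 to 24.1) and the water channel AQP3 (1926 to 227).

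Farthest above the other 4 lines in HCC827 were MHC class II genes: HLA-DRB1 and HLA-DPA1 went from 107 to 2038 and from 554 to 4032, and both were lower than MiG under IkB_SR at 66.6 and 59.5. HLA-DRB1 did not exceed 116 on the IKKb arrays of the other lines. TCIM went from 241 to 1781 in HCC827, below the 2263 or more of every other line under MiG. The stress list, of unfolded protein and amino acid response genes, had a median of 0.42 in HCC827 and -0.01 to 0.11 elsewhere, with ASNS at 1.75, ATF3 at 1.27 and TRIB3 at 1.03. CHAC1, a glutathione-degrading enzyme of the same response, was among the 32 with 1.07 in H358 and 1.82 in HCC827. The stress list was not particular to HCC827 throughout. For 6 of its 20 genes (30.0%), CHAC1 among them, H358 and HCC827 both lay above the other lines, against 12.9% of all genes. For 0 genes did both lie below.

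Interferon-stimulated genes did not follow the split: 5 of 34 were above the other lines and 5 below, with medians of -0.26 in H358 and 0.33 in HCC827. IFIT1 (-1.45), IFIT2 (-1.41) and OAS1 (-1.39) were lower in H358 and between 0.12 and 0.62 in HCC827. Of 19 MHC class I genes 5 were above and 2 below, and HLA-B had 0.65 in H358 and -0.23 in HCC827. The 15 cholesterol synthesis genes had a median of -0.61 in H358 and -0.14 in HCC827, with 5 below the other lines, none by 1 log2 unit; INSIG1 reached -1.85 in H358. The alveolar and airway list had medians of -0.53 and -0.35, against -0.16 to 0.06, with 4 of 14 below and 2 above. Over all genes 12.9% lay above and 9.16% below, and several lists were near these shares. Counts above and below were 5 and 0 of 20 for adhesion and surface genes, 4 and 2 of 17 for proteases and matrix, 2 and 3 of 11 for anti-apoptotic genes, 4 and 2 of 22 for immediate-early genes, 4 and 0 of 20 for NRF2 targets and 3 and 1 of 30 for the cell cycle. They were 0 and 2 for each of the epithelial (20 genes), hypoxia (19) and p53 target (17) lists.

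**Figure D3:**
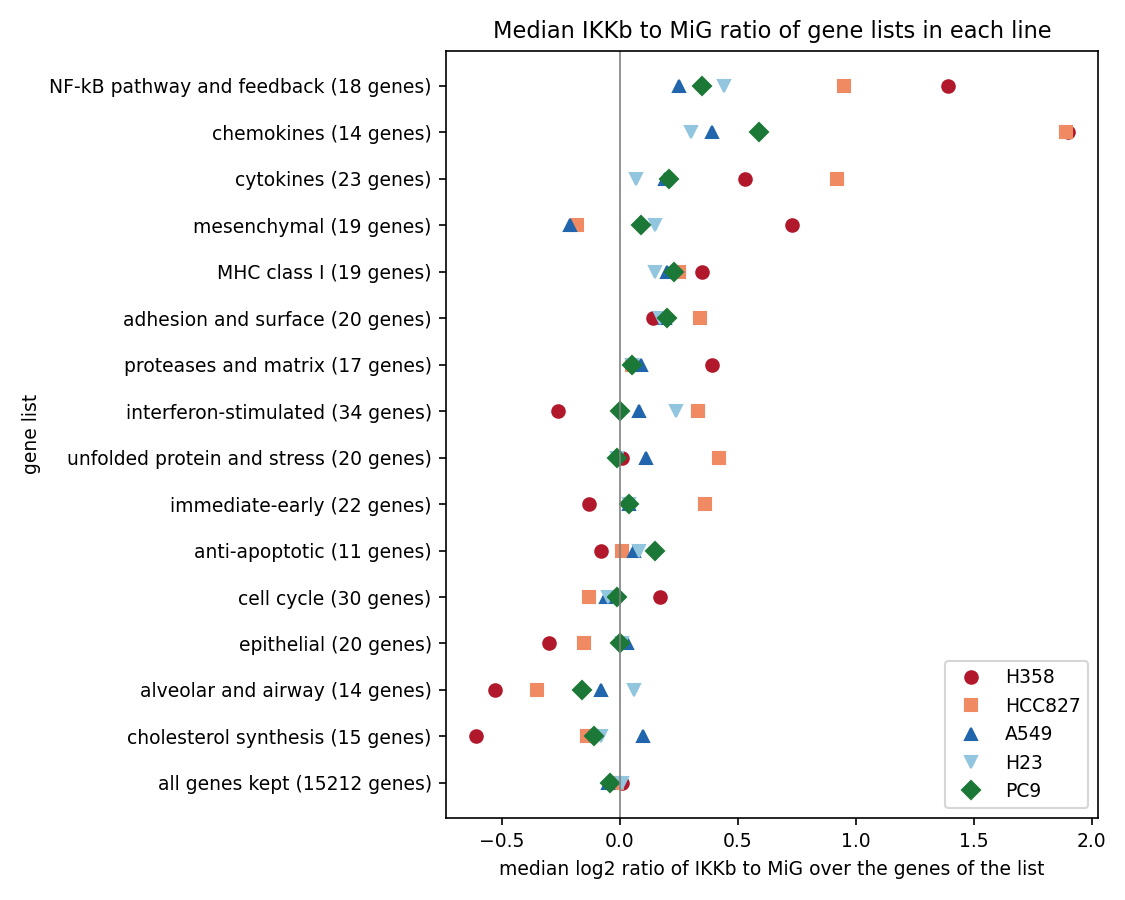
Median log2 ratio of IKKb to MiG (x axis) over the kept genes of 15 gene lists and of all kept genes (y axis), with 1 point per cell line. H358 and HCC827 stand to the right for NF-kB genes (1.39 and 0.95) and chemokines (1.90 and 1.89), and only H358 does so for the mesenchymal list (0.73).

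The 15 lower genes were mostly dim. In 14 of them the IKKb signals of both H358 and HCC827 were below the 40th percentile, against 4.19% of all kept genes. Among the 14 were RNF5, which had the widest gap (-2.89), ATP2B3 (-1.90) and EIF2AK3-AS1 (-1.78). In NKX2-1, the lung lineage transcription factor, H358 was bright and went from 2397 to 1045, but HCC827, from 32.0 to 3.19, was below the percentile on both arrays. H23 had 262 under both vectors, and A549 and PC9 were at most 17.0. The NKX2-1 ratios were -1.19 and -1.32 against -0.15, 0.00 and 0.25, and its second probe set had a gap of 0. Over all genes, H358 and HCC827 were below 0 and the other 3 lines above 0 for 278 (1.83%), and the reverse for 537 (3.53%).

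The LLC arrays give a second reading of the same genes in another species, independent of the choice of lines. Of the 32 higher genes 29 had a symbol match on the mouse array and 21 passed its filter. At an unadjusted p under 0.05 (limma), 6 of the 21 (28.6%) were higher with IKKb and 0 lower, where 146 of all 12549 mouse genes (1.16%) were higher and 92 (0.733%) lower. After Benjamini-Hochberg adjustment limma called 0 genes of the 12549. Mmp9 came nearest, with MiG signals of 21.6 and 37.4 and IKKb signals of 1211 and 730, at least 18.5-fold, a log2 difference of 4.42 ± 0.34 (SE, adjusted p 0.0552, limma). Ccl2 went from 1980 and 1088 to 10553 and 5988, a log2 difference of 2.42 ± 0.37 (adjusted p 0.381, limma). Ikbke, which encodes an IKK-related kinase, differed by 1.90 ± 0.49, Tnfaip3 by 1.41 ± 0.32, Cxcl5 by 1.37 ± 0.34 and Nfkbia by 1.10 ± 0.23. For these 6 genes the 2 IKKb signals lay above the 2 MiG signals. Zeb1 was bright on all 4 arrays (1659 to 1959) with a difference of -0.02 ± 0.18, Inhba had 0.08 ± 0.65 and Sod2 0.44 ± 0.19. Of the 15 lower genes 7 passed the mouse filter and 0 had an unadjusted p under 0.05 in limma.

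Among 27 NF-kB and immune genes of a fixed set, 16 passed the mouse filter. Of these, 9 were higher at an unadjusted p under 0.05 in limma (56.2%), against 1.16% of all mouse genes. The 9 included the adaptor Traf1 (3.26 ± 0.47), Relb (1.85 ± 0.36) and Cxcl1 (2.01 ± 0.50). Nfkbia, Tnfaip3 and Ccl2 were also among the higher genes counted above, so the 2 counts overlap. The counts after adjustment rose when any single array was left out. They also rose with same-numbered arrays taken as pairs, a pairing that the labels do not state. Without the first MiG array limma called 44 genes, 4 of them among the 21 (Ccl2, Ikbke, Mmp9 and Nfkbia). Without the second MiG array it called 138, 6 of them among the 21, Chac1 with a lower signal under IKKb. Without the first and the second IKKb array it called 5 and 10, Mmp9 alone of the 21 and then Mmp9 with Ccl2. In these fits the lone array is assumed to vary like the other group.

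**Figure D4:**
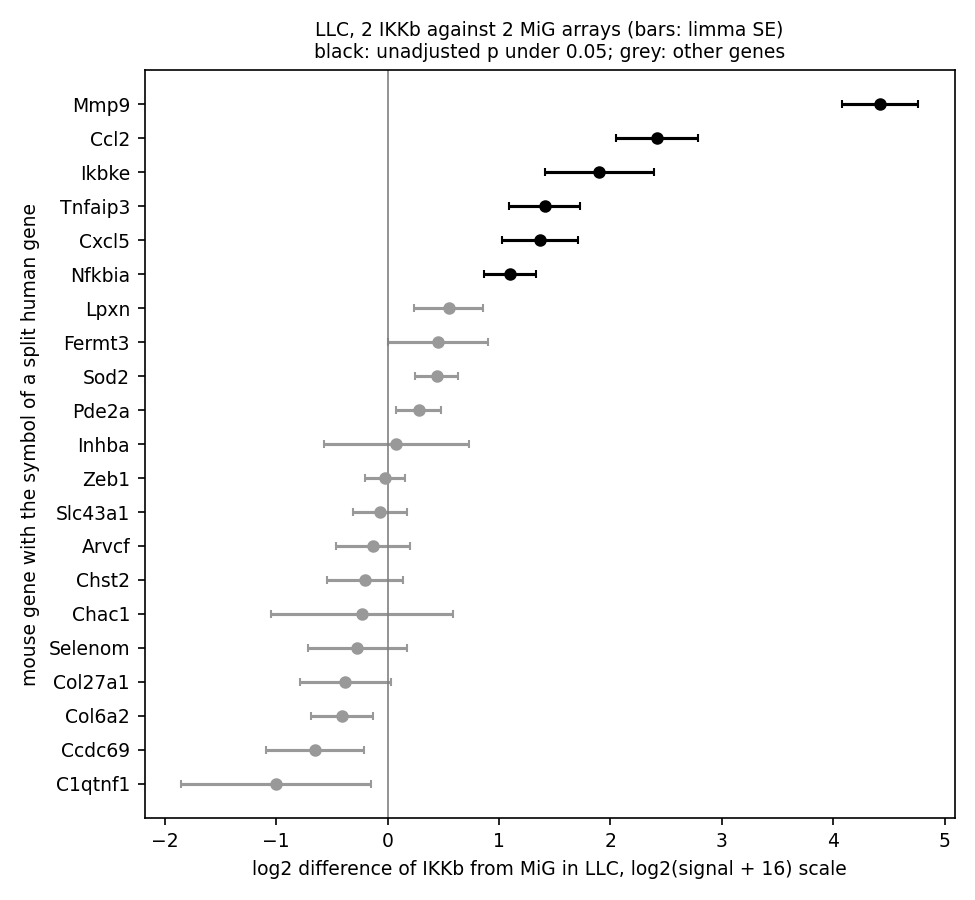
Log2 difference of IKKb from MiG in LLC (x axis, log2(signal + 16) scale, 2 arrays against 2, bars limma SE) for the 21 mouse genes that share a symbol with a higher human gene (y axis). The 6 black points, from Nfkbia at 1.10 to Mmp9 at 4.42, had an unadjusted p under 0.05, and the grey points from C1qtnf1 (-1.0) to Lpxn (0.55) did not.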

How the data were processed

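Probe set values are intensity on a linear scale, deposited by the authors and computed with GCOS 1.4 and MAS5, per the submitters' processing notes. Each array's mean without the lowest and highest 2 percent was 500, so differences in total RNA are removed, and values near background are noisy. Signals were taken as log2(signal + 16), and folds are on that scale, which understates low genes. Of 54675 human probe sets, 41097 name 1 gene, 1801 several and 11777 none in the platform annotation; symbols were updated to RefSeq for 41043. The brightest probe set stood for a gene (19775 human genes). A gene was kept if above the 40th percentile of its array on at least 5 of the human or 2 of the LLC arrays, leaving 15212 and 12549. BIRC3 had no single-gene human probe set here, and an item of the fixed set is not reported here. Where MiG was below the percentile, folds are lower bounds against it.

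Tests were those of limma 3.58.1 (lmFit, eBayes with trend, two-sided), run under R 4.3.3. P-values were adjusted by Benjamini-Hochberg across every gene of a comparison, threshold 0.05, and the fit was tested on simulated data. The number of arrays limits the precision: 2 lines against 3 cannot go below p = 0.2 in an exact two-sided rank-sum test. The lines, the 21 gene lists and the rule for named genes were chosen with earlier results of these data known. The rule named the genes with the widest gaps (12 above, 8 below), up to 4 members per list, 6 genes per direction of each strongly responding line, the smallest p-values on the IkB_SR arrays, a fixed NF-kB and immune set, and the LLC matches; RNF5 and other lower genes are dim. Alternatives were other pseudocounts, scalings, filters, probe set means, eBayes settings, left-out arrays, a replicate block in LLC and a floor at the 40th percentile, the last chosen after seeing the data. Figures used matplotlib 3.10.9.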

Additional observations from a re-analysis of the deposited data

Results flagged for a closer look

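Among 63 sets of 5 line values examined, 4 had a line far from the others, where chance gives about 1 in 20. IL6 in HCC827 had a log2 ratio of 2.93. The median of the stress list in HCC827 was 0.42, that of the protease and matrix list in H358 was 0.39, and that of the genes upstream of the kinase in A549 was -0.07.

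Of 40 named genes examined for it, 6 moved down in both H358 and HCC827 and up in all 3 other lines, and the difference was not tested. Over all genes 278 of 15212 (1.83%) did so, and the 40 include the 8 genes with the widest gaps below. The gaps were -2.89 for RNF5, -1.90 for ATP2B3, -1.78 for EIF2AK3-AS1, -1.44 for MAP4K1, -1.23 for GPR62 and -1.13 for C20orf173. TPSG1 (-1.12), TNFRSF13B (-1.07) and SERPINA9 (-1.04), outside the 40, had the same signs. The first 6 had IKKb signals below the 40th percentile in both H358 and HCC827.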

How the results depend on the processing

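The main counts were 32 higher and 15 lower genes. They were 61 and 48 with a pseudocount of 1, and 15 and 1 with 64. Lower genes numbered 24 with no filter, 1 with the filter at the 60th percentile and 1 with signals floored at the 40th percentile, an alternative chosen after seeing the data in which 28 of the 32 higher genes remained. Leaving out a line, which relaxes the condition by construction, gave 52 to 248 higher and 30 to 243 lower genes; without H358, HCC827 alone exceeded the other 3 lines for 230 genes, and without HCC827, H358 did for 248. Of the 32, 11 kept a gap of at least 1 under every alternative that measured them: CCL20, SRGN, CXCL5, INHBA, MMP9, PTX3, CCL2, TNFAIP3, LTB, BCL2A1 and SOD2; of the 15 lower genes, 0 did. On the IkB_SR arrays limma called 2 genes with the mean of probe sets and 0 under the other alternatives. In LLC it called 2 genes with a pseudocount of 64, 5 to 138 when an array was left out, and 223 with the replicate number as a replicate block (deviations of same-numbered arrays correlated at 0.53; the labels do not say that numbers pair arrays). The cause of these changes was not tested. Dim probe sets, near or below a signal of 45.0, limit the lower genes most.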
